A study of Mus musculus with 15 samples.

Results

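The sarcomeric myosin chains of the heart were read from 8 probe sets annotated to 6 genes, out of 12422 probe sets on the array without its controls and 8251 genes that its annotation names alone on a probe set. Members were taken by the gene symbol of the array's annotation. The genes are the heavy chains Myh6 and Myh7, the ventricular light chains Myl2 and Myl3, and the atrial light chains Myl4 and Myl7. Myh7 and Myl4 had 2 probe sets each, the other genes 1, and no probe set was annotated to several genes. Both Myh7 probe sets carry the suffix _f_at, which on this array design marks probes that also match other members of a gene family, so their intensity cannot be assigned to Myh7 alone.

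RNA came from mouse left ventricle in 4 groups: 3 female sham hearts, 6 male sham hearts, 3 female TAC hearts and 3 male TAC hearts. TAC is the label of the operation in a series on pressure overload and usually stands for transverse aortic constriction. The labels name no strain, age, genotype or time after the operation. The labels call each sample a heart without saying that each came from its own animal, so the p-values measure the spread between these samples. The 15 arrays had medians between 21.2 and 26.7 intensity units, and their number limits the precision. All values are probe-set intensities in arbitrary units, which compare groups within a probe set but not probe sets with each other.

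Cardiac myosin is built from a pair of heavy chains, whose heads split ATP and pull on actin, and from essential and regulatory light chains that stiffen and tune the lever arm of each head. The alpha heavy chain of Myh6 cycles fast and predominates in the adult mouse ventricle, while the slower beta chain of Myh7 belongs to the fetal ventricle and is a textbook marker of overload. Each chamber has its own light chains: Myl3 (essential) and Myl2 (regulatory) in the ventricle, Myl4 (essential) and Myl7 (regulatory) in the atrium and the early embryonic heart. Left ventricular RNA is bulk RNA, in which fewer cells of a type and less RNA per cell cannot be told apart.

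Upstream sequence is shown for the genes on which the results turn: the heavy chains, which are neighbours on chromosome 14 with 0 protein-coding genes between them, and the atrial light chains, whose intensities moved together from array to array. Each sequence is the 250 bases before a transcription start listed by RefSeq (GRCm38.p6), 5′ to 3′ along the gene. Capitals mark matches, on either strand, to 3 motifs. The M-CAT element of TEAD factors was searched as CATTCC, which shows as GGAATG where it lies on the other strand. The GATA site was searched as GATAAG. The CArG box of serum response factor was searched as CC and GG around a run of A or T, with the length of CCTTATTTGG. No marked matches overlapped.
Myh6, chr14:54966608-54966857, minus strand: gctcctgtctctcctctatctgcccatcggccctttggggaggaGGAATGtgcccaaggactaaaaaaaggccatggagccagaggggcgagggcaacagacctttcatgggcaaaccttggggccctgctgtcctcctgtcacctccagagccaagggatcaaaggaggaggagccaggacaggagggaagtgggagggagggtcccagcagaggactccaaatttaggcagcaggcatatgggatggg
Myh7, chr14:54994627-54994876, minus strand: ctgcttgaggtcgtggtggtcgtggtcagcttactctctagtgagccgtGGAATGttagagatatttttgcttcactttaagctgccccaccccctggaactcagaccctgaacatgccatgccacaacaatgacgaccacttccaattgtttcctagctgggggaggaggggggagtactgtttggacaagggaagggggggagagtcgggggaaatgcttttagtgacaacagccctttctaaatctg
Myl4, chr11:104550413-104550662, plus strand: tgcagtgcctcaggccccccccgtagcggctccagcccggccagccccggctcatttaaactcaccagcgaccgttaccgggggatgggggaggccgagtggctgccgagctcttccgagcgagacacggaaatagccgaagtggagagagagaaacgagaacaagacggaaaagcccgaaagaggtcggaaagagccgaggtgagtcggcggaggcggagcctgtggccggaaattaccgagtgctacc
Myl7, chr11:5898783-5899032, minus strand: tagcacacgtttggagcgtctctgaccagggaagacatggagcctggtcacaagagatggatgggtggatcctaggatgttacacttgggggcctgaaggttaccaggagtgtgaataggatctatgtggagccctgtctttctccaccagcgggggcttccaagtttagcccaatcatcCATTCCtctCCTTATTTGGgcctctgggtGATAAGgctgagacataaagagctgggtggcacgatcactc
RefSeq's list held all 6 genes with 8 starts, and for Myh7 the first of its 2 starts is shown. The Myh6 and Myh7 windows shown each held 1 CATTCC match, 206 and 201 bases before the start. The window of the second Myh7 start held no CATTCC match. Of all 32851 promoter windows of this length, 12.6% held one. The Myl7 window held 1 CATTCC, 1 CArG box and 1 GATAAG match, 70, 61 and 41 bases before the start. A CArG box was found in 1.47% of all windows and GATAAG in 6.55%. The Myl4 window held none of these letters. Of the windows not shown, that of Myl3 held 1 CArG box, 85 bases before the start, and 2 CATTCC matches, 177 and 149 bases before it. Those of Myl2 held none of these 3 motifs. TATAAA (12.4% of windows), AGGTCA, the half-site of nuclear receptors such as the thyroid hormone receptor (14%), and the MEF2 site (2.92%) were searched as well and were absent from the 4 windows shown. CANNTG, the E-box, stood once in each of the windows of Myh6, Myh7 and Myl7 and in 66.2% of all windows. A match is a stretch of letters and says nothing about binding.

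The comparison of TAC with sham hearts asked how the myosin chains of the ventricle stood under pressure overload. None of the 8 probe sets was called in limma, at an adjusted p under 0.05 over the 7453 probe sets tested. Across all of these probe sets, 0.322% were called for the mean effect of both sexes (the averaged effect), 0.0805% in females and 0.134% in males. At an unadjusted p under 0.05 there was 1 member, Myh6, for the averaged effect and 1, Myh6 again, in females, and 0 in males, where 7.51%, 4.59% and 6.2% of all probe sets lay under it. The log2 changes of the averaged effect were below 0 for 7 of the 8 probe sets, as for 58.2% of all tested; of these, Myl2 and Myl7 turned to 0.0072 and 0.039 with all arrays scaled to 1 median. The median of the 8 was -0.095, against -0.031 over all tested. TAC and sham intensities overlapped in both sexes for each of the 8 probe sets. Among all tested, 5.74% were wholly lower and 3.14% wholly higher with TAC in females, and 1.54% and 1.62% in males.

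**Figure D1:**
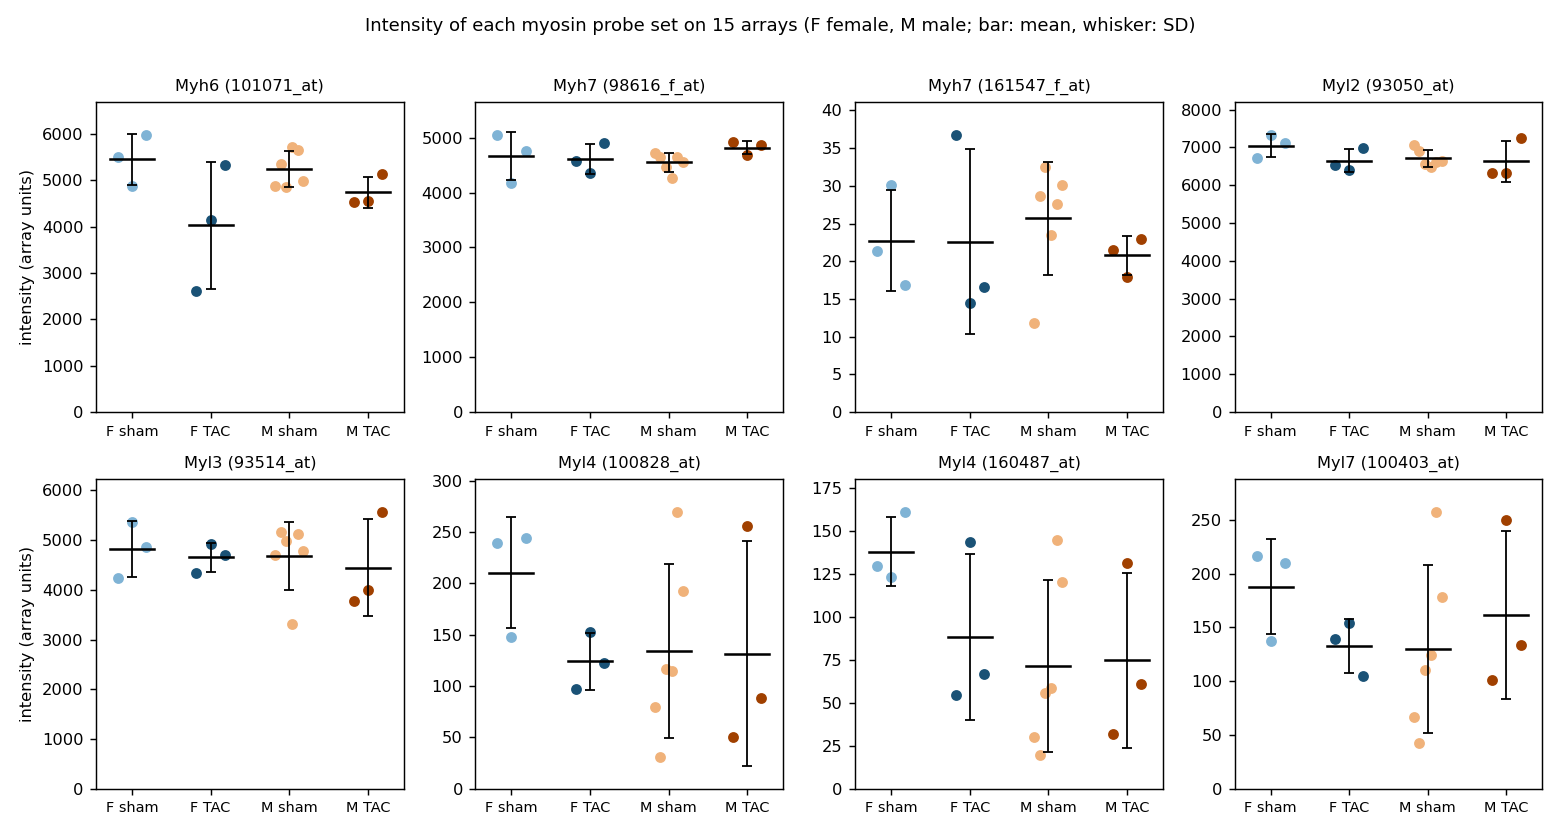
Intensity of each myosin probe set in array units, 1 panel per probe set with its own axis from 0, for female (F) and male (M) sham and TAC hearts; points are arrays, bars group means and whiskers SD. The TAC and sham points overlap in every panel, and the Myl4 and Myl7 panels show the widest scatter within groups.

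Myh6, the alpha heavy chain, had the smallest p of the 8. Its intensities were 5509, 4873 and 5968 in female sham hearts and 2605, 4147 and 5321 in female TAC hearts. Female TAC 1, at 2605, was the lowest of all arrays, and female TAC 3 lay within the range of the female shams. In males the 6 sham hearts ran from 4862 through a median of 5167 to 5725, and the TAC hearts had 4529, 4557 and 5126. In males 2 of the 3 TAC hearts were below every sham heart. The means were 5449.7 ± 549.9 (SD, n = 3) against 4024 ± 1362 (SD, n = 3) in females, and 5241 ± 388 (SD, n = 6) against 4738 ± 337 (SD, n = 3) in males.

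The averaged log2 change of Myh6 was -0.32 ± 0.13 (SE), or 0.802-fold with a 95% interval of 0.662 to 0.971, and it did not pass in limma (adjusted p = 0.559, unadjusted p = 0.026). An exact permutation test that exchanged sham and TAC within a sex, two-sided over 1680 arrangements, gave an unadjusted p of 0.0327. The change was -0.49 ± 0.20 (SE) in females and -0.14 ± 0.17 (SE) in males. Within a single sex the exact permutation p was 0.2 in females (20 arrangements) and 0.0833 in males (84 arrangements), two-sided and unadjusted. With only the female groups fitted, the SE of the female change was 0.27 in place of 0.20. The difference between the sexes, -0.35 ± 0.26 (SE, female minus male), did not pass either (adjusted p = 1.00 in limma). Female TAC 1 carried much of the value: without it the averaged change was -0.18 ± 0.10 (SE; adjusted p = 0.722), the female change -0.21 and the difference between the sexes -0.064. Without female TAC 3 the averaged change was -0.43 (adjusted p = 0.258). Female TAC 1 was also the array with the lowest median intensity, 21.2, and with all arrays scaled to 1 median the averaged change was -0.26 (adjusted p = 0.514). Its intensities of Myl2, 6545, and of the brighter Myh7 probe set, 4580.2, lay within the range of the other arrays, while the dimmer Myh7 probe set was at 36.7, the highest of the 15. With array weights the averaged change of Myh6 was -0.16 (adjusted p = 0.596) and the female change -0.17.

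**Figure D2:**
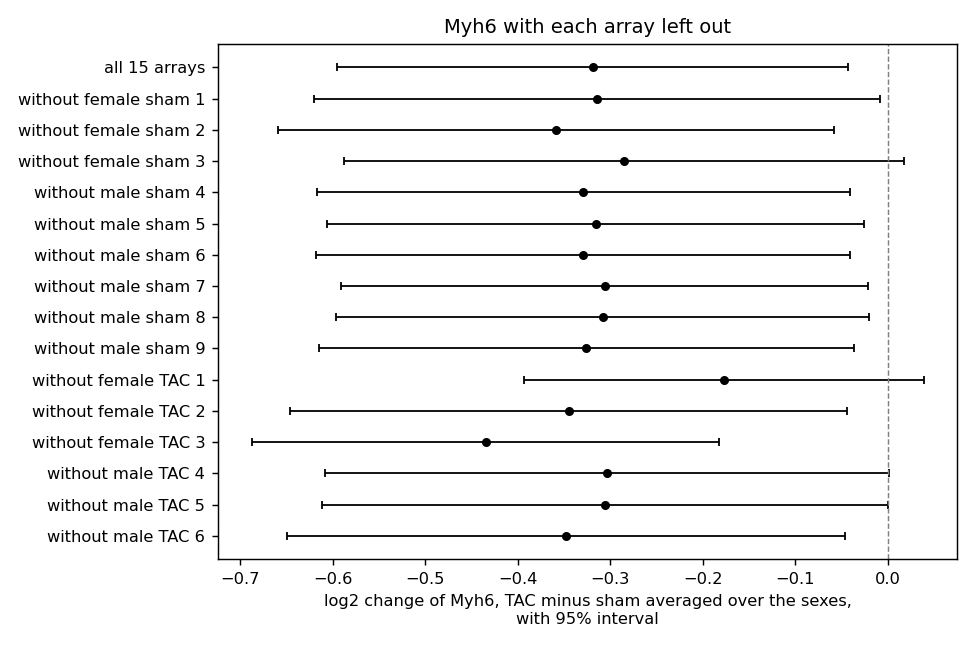
Averaged log2 change of Myh6, TAC minus sham, with all 15 arrays and with each array left out in turn; points are limma estimates and bars 95% intervals. The estimate runs from -0.43 without female TAC 3 to -0.18 without female TAC 1, and stays below 0 in each of the 15 runs.

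Myh7, the beta heavy chain, did not pass with either of its family probe sets. The probe set 98616_f_at read 5043, 4179 and 4760.1 in female sham hearts and 4580.2, 4349 and 4902 in female TAC hearts. The male sham hearts ran from 4261 through a median of 4602 to 4727, and the male TAC hearts had 4915, 4681 and 4858. The female groups overlapped fully, while 2 of the 3 male TAC hearts were above every male sham. The averaged log2 change was 0.035 ± 0.082 (SE), or 1.02-fold with a 95% interval of 0.909 to 1.16 (adjusted p = 0.948 in limma). The changes in females and males were -0.013 ± 0.12 and 0.083 ± 0.11 (SE). In males alone the exact permutation p was 0.0595 (two-sided, unadjusted, 84 arrangements). The female change turned to 0.14 with quantile normalization and 0.070 with arrays scaled to 1 median.

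The intensity of 98616_f_at varied less between arrays of a group than nearly all others. Its within-group SD was 0.080 on the log2 scale, and 99.8% of the tested probe sets had a larger one, against a median of 0.243. The tested probe sets were bright and dim, and spread was not compared among equally bright ones. Whether an intensity this high still scales with the amount of RNA was not tested. Its relation to Myh6 from array to array did not pass (Pearson r = 0.15, permutation p = 0.597, Spearman rho = 0.21, permutation p = 0.458, n = 15; adjusted p = 0.989 over 28 pairs of members for r). Without the arrays farthest from the median of Myh6, r was 0.019. On female TAC 1, where Myh6 was lowest, it read 4580.2.

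The second Myh7 probe set, 161547_f_at, lay near the floor of 20 below which intensities were not told apart. It read 21.3, 30.1 and 16.8 in female sham and 36.7, 14.5 and 16.5 in female TAC hearts. In males it ran from 11.8 through 28.1 to 32.5 after sham, and was 21.5, 17.9 and 23.0 after TAC. It was below the floor on 5 of the 15 arrays, in every group at least once. Its averaged log2 change was -0.13 ± 0.15 (SE; adjusted p = 0.897 in limma), with 0.064 ± 0.23 (SE) in females and -0.32 ± 0.20 (SE) in males. The probe sets of Myh7 thus had opposite signs in the averaged effect, and neither passed.

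No difference was called for the ventricular light chains. Myl2, the ventricular regulatory chain whose phosphorylation raises calcium sensitivity, read 6709, 7322 and 7125 in female sham and 6545, 6410.3 and 6997 in female TAC hearts. Male sham hearts ran from 6488 through 6634 to 7060.4, and male TAC hearts had 6337, 6314 and 7261. In males 2 of 3 TAC hearts were below every sham and male TAC 6 was above every sham. The averaged change was -0.052 ± 0.080 (SE), or 0.965-fold with a 95% interval of 0.858 to 1.08 (adjusted p = 0.920 in limma). Myl2 on female sham 2, at 7322, was the highest intensity of the whole table, and whether such intensities still scale with the amount of RNA was not tested. The averaged change turned to 0.0072 with arrays scaled to 1 median. Its within-group SD, 0.070 on the log2 scale, was smaller than that of 99.9% of the tested probe sets, bright and dim together.

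Myl3, the essential light chain of ventricle and slow skeletal muscle, read 4249, 5364 and 4872 in female sham and 4331, 4918 and 4711 in female TAC hearts. Male sham hearts ran from 3323 through 4879 to 5168, and male TAC hearts had 3787, 3989.8 and 5564. Male TAC 6 was the highest of all 15 arrays and male sham 7 the lowest. The averaged change was -0.064 ± 0.12 (SE), or 0.956-fold with a 95% interval of 0.800 to 1.14 (adjusted p = 0.936 in limma). Myl2 and Myl3 had a Pearson r of 0.65 (permutation p = 0.0078, adjusted p = 0.0546 over 28 pairs) and a Spearman rho of 0.61 (permutation p = 0.0177) over the 15 arrays. Without the arrays farthest from the median of Myl2, r was 0.51, and after adjustment the relation did not pass.

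**Figure D3:**
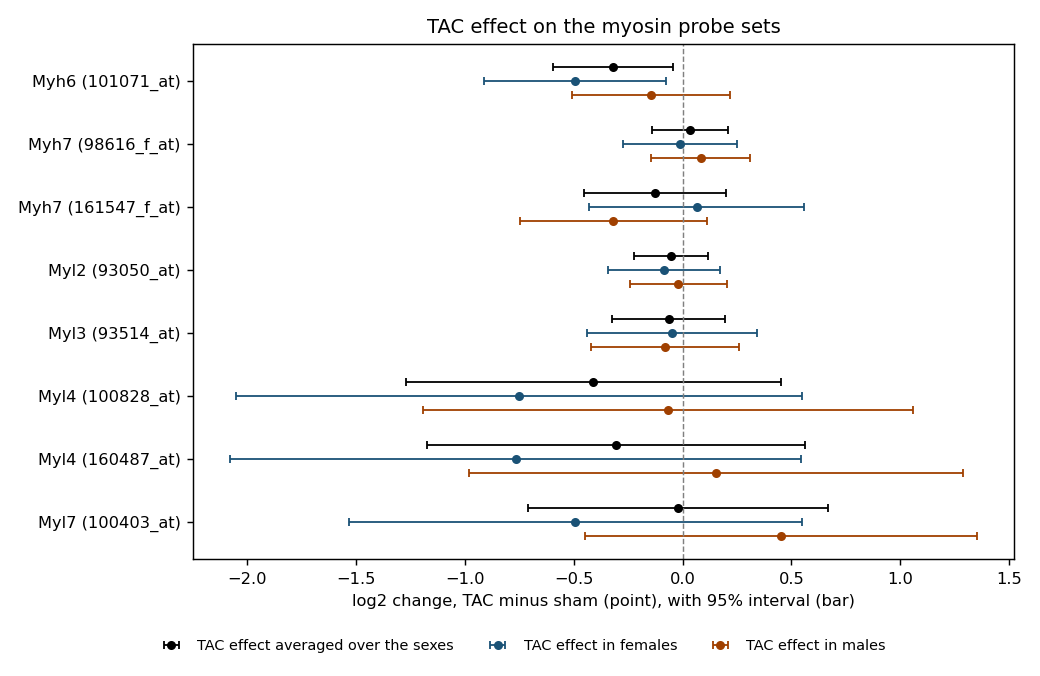
Log2 change, TAC minus sham, of the 8 myosin probe sets for both sexes averaged, for females and for males; points are limma estimates and bars 95% intervals. The intervals of Myh7 (98616_f_at), Myl2 and Myl3 are narrow and hold 0, and those of Myl4 and Myl7 are wide. Myh6 is the one member whose averaged and female intervals lie below 0, with the spread of all groups pooled.

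The atrial light chains stood out by their spread between arrays of a group. Myl4, the atrial essential chain, was read by 100828_at at 239, 148 and 244 in female sham hearts and at 97.5, 153 and 122 in female TAC hearts. Male sham hearts had 79.2, 31.3, 117, 115, 269 and 192, in the order of replicates 4 to 9. Male TAC hearts had 50.3, 256 and 88.6. The highest male sham heart was thus 8.60 times the lowest, and the highest male TAC heart 5.09 times the lowest. The second Myl4 probe set, 160487_at, ran from 123 to 161 in female sham, 54.6 to 143 in female TAC, 19.9 to 145 in male sham and 31.7 to 131 in male TAC hearts.

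Myl7, the atrial regulatory chain, read 217, 138 and 209.7 in female sham and 139.7, 154 and 105 in female TAC hearts. The male sham hearts, replicates 4 to 9, had 66.4, 42.2, 110.4, 124, 257 and 178, and the male TAC hearts 101, 250.1 and 134. Male sham 5 and male sham 4 were the lowest arrays for Myl7, and male sham 8 and male TAC 5 the highest. Myl7 was above the floor on all 15 arrays, in tissue labelled as left ventricle.

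The averaged log2 changes were -0.41 ± 0.41 and -0.31 ± 0.41 (SE) for the probe sets of Myl4 and -0.020 ± 0.33 (SE) for Myl7, with adjusted p of 0.876, 0.911 and 0.994 in limma. In females all 3 were below 0, at -0.75 ± 0.62, -0.77 ± 0.62 and -0.49 ± 0.49 (SE). In males they were -0.068 ± 0.53, 0.15 ± 0.54 and 0.45 ± 0.43 (SE). Myl7 averaged over the sexes turned to 0.039 with arrays scaled to 1 median. For Myl7 the female effect minus the male effect was -0.94 ± 0.65 (SE; adjusted p = 1.00 in limma). The 95% interval of the averaged change of Myl7 reached from 0.613-fold to 1.59-fold. Leaving out male TAC 5 or male TAC 4 moved the male change of 100828_at to -0.71 or 0.46, so its sign rested on single hearts.

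The within-group SD on the log2 scale was 0.92 for each Myl4 probe set and 0.72 for Myl7. Of all tested probe sets, 0.215%, 0.201% and 0.577% had a larger one. The 3 probe sets varied together: over the 15 arrays 100828_at and Myl7 had a Pearson r of 0.92 (permutation p = 1e-05, the smallest that 100000 permutations can give; adjusted p = 9.33e-05 over 28 pairs) and a Spearman rho of 0.91 (permutation p = 1e-05). Without the arrays farthest from the median, male sham 5 and male TAC 4, r was 0.90, and for deviations from the group means it was 0.95. Within the 6 male sham hearts r was 0.98 (exact permutation p = 0.00278). The other Myl4 probe set gave an r of 0.91 with Myl7 and 0.94 with the first (permutation p = 1e-05 each). These 3 pairs were the ones of the 28 that passed after adjustment. Points of a pair share an array and its scaling.

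**Figure D4:**
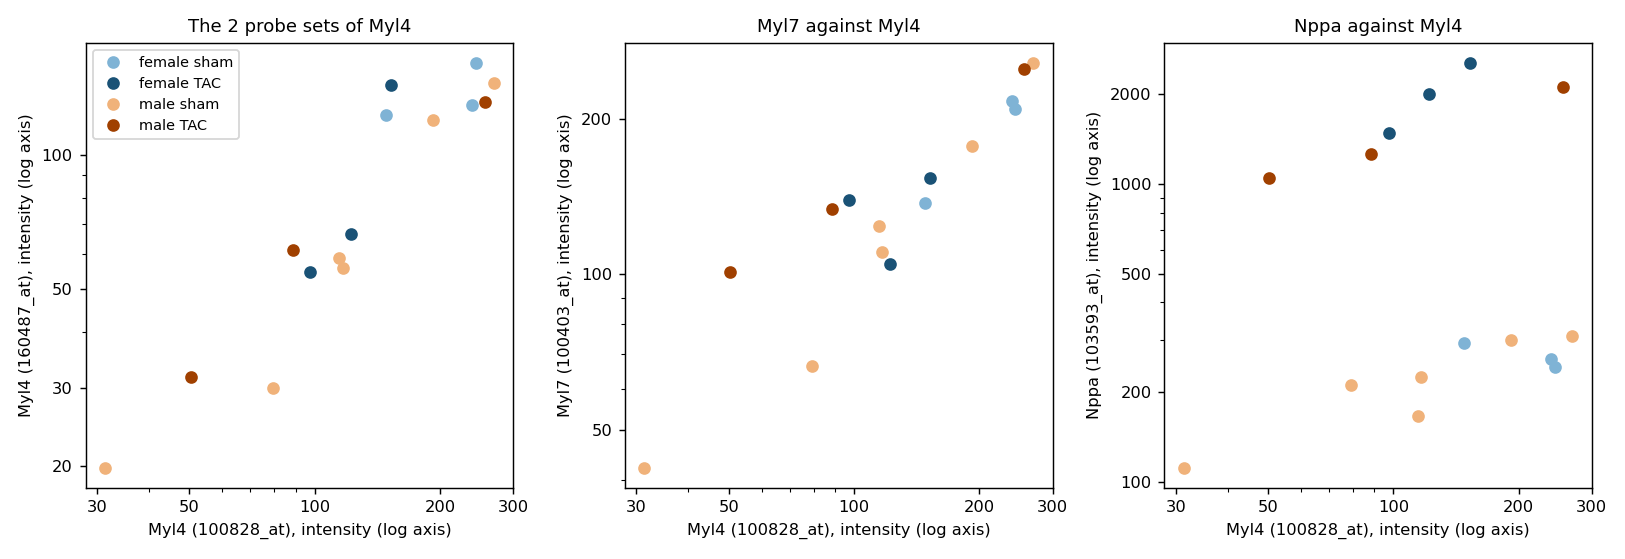
Intensity of the second Myl4 probe set, of Myl7 and of Nppa against the first Myl4 probe set on 15 arrays, all on log axes, with colours for the 4 groups. The light chains lie along a line that all groups share, while Nppa forms a sham band from 111 to 307 and a TAC band from 1045 to 2549. Nppa rises with Myl4 in both TAC groups and broadly in the male shams, and falls with it in the 3 female shams.

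Nppa, the atrial natriuretic peptide gene, was the gene most like Myl4 within groups when all 15 arrays were used. Over 3937 genes compared, its deviations from the 4 group means had the highest Pearson r with those of 100828_at, 0.88 over 15 arrays, and 0.77 without male sham 5 and male sham 8. Its r was 0.88 with the second Myl4 probe set and 0.77 with Myl7, and between -0.21 and 0.16 with the other 5 member probe sets. Nppa averaged 264 ± 24.9 (SD, n = 3) and 2011 ± 531 (SD, n = 3) in female sham and TAC hearts and 219.6 ± 75.6 (SD, n = 6) and 1473 ± 567.6 (SD, n = 3) in male ones. In the TAC hearts the order of Nppa was that of 100828_at in both sexes: 1487, 1997 and 2549 beside 97.5, 122 and 153 in females, and 1045, 1257 and 2117 beside 50.3, 88.6 and 256 in males. In female sham hearts the order was the opposite, with Nppa at 292, 257 and 243 beside 148, 239 and 244. In male sham hearts male sham 5 was lowest and male sham 8 highest for both genes, but male sham 4 and male sham 7 changed places. The next genes of 100828_at were Nr1d1, a clock repressor, with 0.85, and Myh9, a non-muscle myosin heavy chain, with 0.84. Without male sham 5 and male sham 8 their r was 0.80 and 0.76, so Nr1d1 then stood above Nppa. For Myl7 the nearest genes were Myh9 with 0.86, Rrad, a small GTPase of the calcium channel, with 0.80, and Cyp21a1 with 0.79. These r are descriptions, chosen as the highest among many.

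The list of other atrial markers had 14 genes on the array, of which 6 were tested, and not all 14 are named here. Bmp10, Nr2f1, Nr2f2, Pam, Fgf12 and Adm, 6 in all, were below the floor on all 15 arrays, and Sln, the sarcolipin gene that marks the mouse atrium, was below it on 13, with a highest value of 23.5. Clu (114 to 212, by a family probe set), Stard10 (53.0 to 95.8), Gja5 (group means from 101 to 116), Nppa and Myl1 were above the floor on all 15 arrays, and Dkk3 on all but 4. The deviations of Dkk3 had an r of 0.54 with those of Myl7, against -0.010 for Clu, -0.076 for Stard10, 0.24 for Gja5 and 0.31 for Myl1. The summed intensity of the 14 genes, mostly Nppa after TAC, was 861 to 971 in female sham, 2107 to 3306 in female TAC, 762 to 1044 in male sham and 1665 to 2786 in male TAC hearts. Nppa alone of the 6 tested was called, with a log2 change of 2.83 ± 0.22 (SE; adjusted p = 1.29e-06 in limma). Whether atrial tissue in some samples had a part in the levels of Myl4 and Myl7 was not tested. The summed ventricular and general cardiomyocyte markers, 15 genes, overlapped between the groups and ran from 27094 to 34694 over all arrays, with Actn2 below the floor on all of them.

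The deviations of the other members had other nearest genes. Those of Myl3 were most like Mtx2, a mitochondrial outer membrane protein (r = 0.91), Tnnc1, the cardiac and slow troponin C (0.91), and Arpc4, an actin-branching subunit (0.90). Without male sham 7 and male TAC 6 the same r were 0.76, 0.73 and 0.81. For Myh6 they were Crip2, a LIM-domain protein (0.94), Brix1 (0.92) and Gatad2a (0.91), which were 0.87, 0.71 and 0.64 without female TAC 1 and female TAC 3. For 98616_f_at they were Cyth2, Jarid2 and Man2a1 (0.83, 0.83 and 0.80), and for Myl2 Hnrnpab, Sh2d1b1 and Ddr1 (0.85, 0.84 and 0.84). By the log2 values themselves the 3 leading genes of Myh6 were Brix1, Crip2 and Prss29 (0.92, 0.92 and 0.90), and those of 98616_f_at were Agt, Sprr1b and Lect2 (0.76, 0.74 and 0.74). For Myl2 they were Crhr2, 1700037H04Rik and Cryge (0.83, 0.79 and 0.79), and for Myl3 Map7d1, Mtx2 and Epn2 (0.90, 0.90 and 0.89). For 100828_at of Myl4 they were Rab6a, Syne4 and Rrad (0.79, 0.73 and 0.70), and for Myl7 Rrad, B3galt4 and Cfl1 (0.81, 0.74 and 0.72). Nppa, which separates the operations, was not among the 3 leading genes of Myl4 by this measure.

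The genes around the myosin chains were taken from lists of partners, enzymes and regulators. Among partners of the thick filament, 8 of the 19 listed genes were on the array and tested, 0 were called in limma, 0 had an unadjusted p under 0.05, and the median change was 0.030, against -0.031 over all tested. Mybpc3, the cardiac myosin-binding protein C that restrains the heads, went from 1943 ± 102 to 2178 ± 375 in females (SD, n = 3 each) and from 1789.9 ± 140.1 (SD, n = 6) to 2109 ± 153 (SD, n = 3) in males. Its log2 change was 0.20 ± 0.10 (SE; adjusted p = 0.686 in limma). Myom2 and Myom1, which tie the thick filaments at the M-band, had 0.33 ± 0.17 and 0.22 ± 0.14 (SE).

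Of the kinases and phosphatases that act on light chains, 9 of 21 were tested, with none called in limma and a median of -0.017. An unadjusted p under 0.05 was reached by 0 of them and by 7.51% of all tested probe sets. Camk2a, Camk2d and Camk2b, chains of the calmodulin kinase, had the smallest p, with 0.17 ± 0.10, 0.21 ± 0.13 and -0.11 ± 0.09 (SE). Camk2a was below the floor on 10 and Camk2d on 7 of the 15 arrays, so the floor sets much of their changes. Among the other muscle myosins 5 of 13 were tested, 0 were called in limma, 1 had an unadjusted p under 0.05 and the median was -0.096. That gene, Myl1, a fast skeletal and embryonic essential light chain, had 0.36 ± 0.14 (SE; adjusted p = 0.522 in limma), with means of 197 ± 19.8 and 267 ± 31.5 (SD, n = 3 each) in female sham and TAC hearts. Myh4, the heavy chain of the fastest fibres, and Mylpf, the fast regulatory light chain, had -0.21 ± 0.13 and -0.25 ± 0.16 (SE). Mylpf was below the floor on 3 of the 15 arrays, with a female TAC mean of 17.7, so its change depends in part on the floor. Myh1, Myh3 and Myh8, the other fast, embryonic and perinatal heavy chains, were below the floor on all arrays. Of the smooth muscle and non-muscle myosins 10 of 17 were tested and 0 were called in limma, 1 by the unadjusted p, with a median of 0.047. Myl12b, a non-muscle regulatory light chain, had 0.43 ± 0.19 (SE; adjusted p = 0.608 in limma), Myo7a 0.26 ± 0.18 and Myl9, the smooth muscle regulatory chain, -0.33 ± 0.24 (SE). Myl12b was below the floor on 8 of the 15 arrays, with a male sham mean of 10.3, so the size of its change depends on the floor.

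Of the transcriptional regulators of cardiac myosin genes, 28 of 45 were tested and 0 were called in limma, with a median of -0.024 against -0.031 over all tested. An unadjusted p under 0.05 was reached by 4 of the 28, each with a change below 0, and by 7.51% of all tested in either direction. Hopx, a homeodomain protein that restrains serum response factor, had -0.40 ± 0.11 (SE; adjusted p = 0.236 in limma), with means of 989 ± 154 and 764 ± 107 (SD, n = 3 each) in female and 961 ± 127 (SD, n = 6) and 712 ± 95.1 (SD, n = 3) in male sham and TAC hearts. Tead3, a factor of the M-CAT element, had -0.66 ± 0.22 (SE; adjusted p = 0.408) and Mef2a, a MADS-box factor of muscle genes, -0.42 ± 0.17 (SE; adjusted p = 0.553 in limma). Tead3 was below the floor on 1 array and had a male TAC mean of 22.1 ± 16.6 (SD, n = 3), so its change depends in part on the floor. The fourth, named after its value was seen, was Gata6, a zinc-finger factor of the heart, with -0.27 ± 0.11 (SE).

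Markers of other cell types gave 1 further call, that of Postn in the fibroblast list, with 1.45 ± 0.19 (SE; adjusted p = 0.00109 in limma). The summed fibroblast markers, 12 genes, ran from 2344 to 2482 in female sham, 2384 to 3603 in female TAC, 1713 to 2429.8 in male sham and 2530.0 to 2785 in male TAC hearts. Bright probe sets weigh most in such a sum, here those of Dcn and Gsn. The median of the 11 tested was 0.38 against -0.031 over all tested. Of the 11, 6 had an unadjusted p under 0.05, all higher with TAC, against 7.51% of all tested probe sets in either direction. Besides Postn these were Mgp (1.05 ± 0.25), Lum (0.57 ± 0.12), Dcn (0.51 ± 0.13), Col1a1 (0.44 ± 0.17) and Col3a1 (0.38 ± 0.17; log2 change ± SE), genes of the extracellular matrix of which Mgp, Lum, Col1a1 and Col3a1 were chosen for mention after their values were seen. The part of these cells in the myosin values was not tested. The skeletal muscle, smooth muscle, endothelial, leukocyte, red blood cell and general cardiomyocyte lists had 0 called genes of 13, 7, 8, 8, 3 and 14 tested in limma. Counting unadjusted p under 0.05 instead, they had 2, 0, 0, 0, 0 and 3. Those of the skeletal list were Eno3 and Myl1. Those of the cardiomyocyte list, chosen for mention after their values were seen, were Ryr2, Cox7a1 and Ckm (-0.52 ± 0.13, -0.31 ± 0.088 and -0.41 ± 0.17; log2 change ± SE). Ckm, with group means from 52.4 to 78.3, was read by a family probe set (_f_at), as were Actg2 and Actc1. The intensity of such a set cannot be assigned to the named gene alone. The brightest genes of these lists were Eno3 and Pvalb (skeletal muscle, -0.43 ± 0.090 and 0.19 ± 0.10), Actg2 and Smtn (smooth muscle, -0.055 ± 0.23 and -0.36 ± 0.24), and Eng and Cd34 (endothelium, -0.069 ± 0.12 and 0.17 ± 0.084). Those of the leukocyte list were Cd14 and Cd74 (-0.017 ± 0.090 and -0.33 ± 0.21), those of the red blood cell list Hba-a1 and Alas2 (-0.034 ± 0.15 and -0.045 ± 0.13), those of the fibroblast list Dcn and Gsn (0.51 ± 0.13 and 0.063 ± 0.13), and those of the cardiomyocyte list Actc1 and Cox6a2 (0.10 ± 0.087 and -0.065 ± 0.085; log2 change ± SE, none called).

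The sexes were compared last. Neither in sham hearts nor in TAC hearts was a member called in limma, where 0% of all tested probe sets were called in each comparison. In sham hearts 1 member probe set, 160487_at of Myl4, had an unadjusted p under 0.05, as had 4.71% of all tested, and in TAC hearts 0 had one, against 4.21%. The 3 atrial light-chain probe sets had the largest sham differences, female minus male: 0.91 ± 0.53 for 100828_at, 1.27 ± 0.54 for 160487_at and 0.75 ± 0.43 for Myl7 (SE; adjusted p = 0.974 each in limma). All 3 female sham hearts lay within the range of the male ones for 100828_at and Myl7, while female sham 3 exceeded them all for 160487_at. Without male sham 5 the 3 differences were 0.55, 0.96 and 0.47. Female and male TAC effects were called as different for 0 of the 8 members and 0% of all probe sets, with 0 members under an unadjusted p of 0.05 against 2.56% of all.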

How the data were processed

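The deposited file holds probe-set intensities of 15 arrays on a linear scale, columns named by sample. Which software, background step or scaling the authors applied is not given in the sources used here, so the deposited level of each array was kept. After removal of 66 control probe sets, intensities were floored at 20, since the 30th percentile of all values, 11.9, was lower, and log2 was taken. Between 42.4% and 48.4% of an array's probe sets lay below the floor, which shrinks the changes of dim genes. Tests covered 7453 probe sets, the brightest 60% by mean.

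Linear models in limma 3.58.1 (R 4.3.3) gave each of the 4 groups its mean over all 15 arrays, with Benjamini-Hochberg adjustment over all tested probe sets and calls at 0.05. Errors are SE unless SD is given. Replicate numbers 1 to 6 recur in the titles of both operations. Deviations of same-numbered arrays correlated at 0.24, 0.27 and 0.12 in females and at 0.064, -0.083 and 0.014 in males. No block was used in the main fit, and a replicate block was tried as a setting. Names came from the platform annotation, updated by Entrez number (10817 of 12422 probe sets matched). Lists use a gene's brightest tested probe set. All member probe sets are named, as are the 3 genes of smallest p in each list of myosin partners, enzymes and regulators, called genes, the 2 brightest genes of each marker list, and the 3 nearest genes of each member. Members and lists were chosen with earlier results of these data known. Simulated data with 200 changed probe sets returned 43.3%, 92.5% and 100% of averaged log2 changes of 0.5, 1 and 2, with noise independent between probe sets. The changed probe sets were drawn from all tested ones, whose median within-group SD was 0.243. These shares do not hold for Myl4 and Myl7, with SDs of 0.92 and 0.72. Normalization, floor, filter, variance model, array weights, samples fitted, pairing, single arrays and an exact permutation test were tried.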

Additional observations from a re-analysis of the deposited data

Results flagged for a closer look

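Myl3 on male sham 7 stood apart from the other male sham hearts, at 3323 against 4699 to 5168 for the other 5. The gap to its neighbour was 0.746 of the range of the group, above the 95% limit of 0.625 for 6 samples. The other 7 member probe sets had no such array among the male shams, and chance alone places about 1 in 20 groups past this limit. The other groups, of 3 arrays, were too small for this check. Without male sham 7 the male change of Myl3 was -0.18, against -0.080 with all arrays.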

How the results depend on the processing

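No member probe set was called under any of the 24 or 25 settings of a comparison, and the smallest adjusted p in limma was 0.258 for the averaged effect, 0.385 in females and 0.613 in males. The cause of the changes of sign below was not tested. With arrays scaled to 1 median, the averaged log2 change turned to 0.0072 for Myl2 and 0.039 for Myl7, the female one to 0.070 for Myh7 98616_f_at and 0.034 for Myl3, and the male one of Myl2 to 0.016. With quantile normalization the female changes of 98616_f_at and Myl3 were 0.14 and 0.017. With array weights they were 0.050 for 98616_f_at and -0.12 for 161547_f_at, and the male one of Myl4 100828_at was 0.17. The female change of 161547_f_at was -0.098 with a lower floor and -0.031 when 20 was added instead of a floor.

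With the replicate number as a block, which the labels do not tie to a shared animal or day, the averaged changes were -0.29 for Myh6, 0.10 for Myl4 160487_at and 0.33 for Myl7, and the male ones were 0.66 for 100828_at, 0.98 for 160487_at and 1.15 for Myl7, against -0.068, 0.15 and 0.45 without it. No member was called in it. Of the male hearts, those with a number in both operations carry the blocked values.

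Leaving out 1 array at a time moved the averaged change of Myl7 between -0.20 and 0.12 and that of 98616_f_at between -0.0033 and 0.065. In females 98616_f_at ran from -0.090 to 0.046, 161547_f_at from -0.23 to 0.25 and Myl3 from -0.14 to 0.031. In males 160487_at ran from -0.37 to 0.65, 100828_at from -0.71 to 0.46, Myl2 from -0.086 to 0.015 and Myl3 from -0.25 to 0.025.

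Of the 15 runs for Myh6 that left out 1 array, 11 kept an unadjusted p under 0.05. In limma that p was 0.176 with array weights (log2 change -0.16), 0.0647 with quantile normalization (-0.25) and 0.0648 with the replicate block. In simulated data with the 3 female hearts per group, 10.5% of log2 changes of 0.5 and 77.6% of changes of 1 were called, and the share missed was larger for smaller changes. These shares are for probe sets drawn from all tested, and do not hold for Myl4 and Myl7 with their wide spread. Signal near the floor limits 161547_f_at.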
